A study of Mus musculus with 2 samples.

Results

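The RNAs described here are the small nucleolar RNAs (snoRNAs) and small Cajal body RNAs (scaRNAs) that were detected in mouse gastrocnemius muscle. A gene was taken when all its transcripts carried the type snoRNA or scaRNA and its level was 1 TPM (reads scaled by length to a fixed total per library) or more in both deposited gene tables, so members were chosen by the same TPM values that are described below and these are given with no test. 93 of 1558 annotated snoRNA and scaRNA genes met this, of 55536 genes in all. The study measured total RNA from 2 female B6CASTF1/J mice, first-generation crosses of the B6 and CAST strains, at 2 months of age. There was 1 group and no treatment. Ribosomal RNA was reduced, ERCC spike-ins were added, and 300 ng of RNA went into each library. The labels number the libraries as biological replicates 1 and 2, here animal 1 and animal 2, but give both 1 donor record, so the spread between them is that of these 2 samples. With 1 group of 2 libraries no test between conditions exists, and the values below are descriptions.

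SnoRNAs work in the nucleolus as RNA-protein particles that modify and process ribosomal RNA. C/D snoRNAs (Snord symbols) base-pair with ribosomal RNA and direct 2'-O-methylation by fibrillarin, while H/ACA snoRNAs (Snora symbols) direct the change of uridine to pseudouridine by dyskerin. ScaRNAs use the same boxes but act on spliceosomal small nuclear RNAs in Cajal bodies. U3, U8 and the U17 RNAs (Snora73) take part in cutting the ribosomal RNA precursor, and most vertebrate snoRNAs are released from introns of other genes, their hosts.

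13 sequences show the boxes and the relatives that the results turn on. They are the GENCODE M21 transcripts on the mm10 build, written 5′ to 3′ on the strand of the gene. The first set is 1 family of 4 H/ACA-type RNAs of 144 nt that lie in 4 host genes and were read at very different depths; capitals mark the ACA that stands 3 nt before the 3′ end. They lie at chr11:69669635-69669778 (minus strand, Gm22988), chr11:51737779-51737922 (minus, Gm25291), chr8:33691801-33691944 (plus, Gm24727) and chr10:111481493-111481636 (plus, Gm25117).
Gm22988: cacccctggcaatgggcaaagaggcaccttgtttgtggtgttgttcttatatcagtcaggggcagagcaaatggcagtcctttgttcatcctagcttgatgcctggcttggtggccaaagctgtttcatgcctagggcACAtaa
Gm25291: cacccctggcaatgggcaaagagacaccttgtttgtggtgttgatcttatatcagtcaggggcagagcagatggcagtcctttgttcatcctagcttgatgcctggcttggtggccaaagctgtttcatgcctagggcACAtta
Gm24727: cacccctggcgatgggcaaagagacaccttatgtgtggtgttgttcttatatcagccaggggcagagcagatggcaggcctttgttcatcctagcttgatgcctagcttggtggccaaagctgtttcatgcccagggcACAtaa
Gm25117: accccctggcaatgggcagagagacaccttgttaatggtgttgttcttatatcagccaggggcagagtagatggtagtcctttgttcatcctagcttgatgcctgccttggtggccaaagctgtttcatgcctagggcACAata

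The second set is the U17 family, of which Snora73b and Snora73a lie in Snhg3, a non-coding host gene, and Gm26448 in Rpsa, a ribosomal protein gene. Capitals again mark the ACA. They lie at chr4:132352322-132352526 (minus strand, Snora73b), chr4:132352775-132352979 (minus, Snora73a) and chr9:120129351-120129553 (plus, Gm26448).
Snora73b: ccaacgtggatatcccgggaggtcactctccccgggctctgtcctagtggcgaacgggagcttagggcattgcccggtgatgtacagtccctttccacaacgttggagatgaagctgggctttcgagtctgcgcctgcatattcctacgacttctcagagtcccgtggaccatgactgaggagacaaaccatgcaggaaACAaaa
Snora73a: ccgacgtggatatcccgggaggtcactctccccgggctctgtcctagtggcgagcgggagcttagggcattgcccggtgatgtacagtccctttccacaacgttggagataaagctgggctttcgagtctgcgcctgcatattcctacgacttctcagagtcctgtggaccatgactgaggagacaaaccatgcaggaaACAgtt
Gm26448: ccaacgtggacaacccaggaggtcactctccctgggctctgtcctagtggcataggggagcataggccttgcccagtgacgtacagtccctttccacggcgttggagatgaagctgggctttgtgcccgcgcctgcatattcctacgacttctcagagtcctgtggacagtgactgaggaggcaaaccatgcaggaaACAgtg

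The third set holds RNAs with the C box TGATGA and the D box CTGA, both in capitals. Snord15b and Snord15a share the host Rps3, and Gm25395 and Scarna6 share the host Atg16l1. Snord17, in Snx5, differed most between the animals among the deeply read members, and Rnu3b1 is a copy of U3. They lie at chr7:99479563-99479707 (minus strand, Snord15b), chr7:99482785-99482932 (minus, Snord15a), chr1:87776938-87777209 (plus, Gm25395), chr1:87784556-87784820 (plus, Scarna6), chr2:144265979-144266216 (minus, Snord17) and chr11:87443237-87443452 (plus, Rnu3b1).
Snord15b: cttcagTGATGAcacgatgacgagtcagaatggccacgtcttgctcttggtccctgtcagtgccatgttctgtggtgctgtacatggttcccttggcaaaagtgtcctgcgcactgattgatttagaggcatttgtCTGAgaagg
Snord15a: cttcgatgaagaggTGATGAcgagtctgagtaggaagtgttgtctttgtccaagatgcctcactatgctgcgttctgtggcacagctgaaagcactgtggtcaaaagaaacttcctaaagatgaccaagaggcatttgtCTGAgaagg
Gm25395: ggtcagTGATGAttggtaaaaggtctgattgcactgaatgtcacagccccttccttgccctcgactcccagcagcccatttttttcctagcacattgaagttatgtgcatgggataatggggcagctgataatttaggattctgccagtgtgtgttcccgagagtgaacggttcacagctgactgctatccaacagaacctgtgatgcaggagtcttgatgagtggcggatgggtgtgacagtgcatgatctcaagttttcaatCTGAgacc
Scarna6: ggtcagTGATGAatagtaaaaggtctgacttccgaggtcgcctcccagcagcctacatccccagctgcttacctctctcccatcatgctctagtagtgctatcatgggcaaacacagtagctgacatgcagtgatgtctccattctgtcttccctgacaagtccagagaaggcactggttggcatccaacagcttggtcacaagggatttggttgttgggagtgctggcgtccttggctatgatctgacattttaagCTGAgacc
Snord17: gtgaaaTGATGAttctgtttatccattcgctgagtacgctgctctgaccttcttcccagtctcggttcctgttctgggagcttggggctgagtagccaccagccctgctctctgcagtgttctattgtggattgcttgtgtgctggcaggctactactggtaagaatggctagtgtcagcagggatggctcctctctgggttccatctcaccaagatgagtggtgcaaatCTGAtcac
Rnu3b1: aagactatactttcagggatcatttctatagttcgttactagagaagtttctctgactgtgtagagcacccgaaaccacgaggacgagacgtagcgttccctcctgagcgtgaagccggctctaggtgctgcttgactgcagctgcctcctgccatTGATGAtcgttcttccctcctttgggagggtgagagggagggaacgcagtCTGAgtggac

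The depth was 45014831 reads assigned to genes in animal 1 and 47771308 in animal 2. All 6 muscle fibre markers were high, with means of 5503 to 16485 TPM for single genes. The animals differed in other cell types: the 4 adipocyte markers summed to 537 TPM in animal 1 beside 32.2 TPM in animal 2, and the 4 Schwann cell and myelin markers to 233 TPM in animal 1 against 31.8 TPM in animal 2, with all 8 genes more than 2-fold higher in animal 1. The 3 macrophage markers summed to 29.4 and 18.5 TPM, the 3 endothelial markers to 47.5 and 38.6 TPM, the 4 fibroblast markers to 483 and 419 TPM and the 2 satellite cell markers to 0.95 and 1.30 TPM, animal 1 first. The 4 neuron markers summed to 0.17 TPM in animal 1 beside 0.08 TPM in animal 2. In bulk tissue, fewer cells of a type and less RNA per cell cannot be told apart.

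Together the members held 0.739% of gene TPM in animal 1 and 0.692% in animal 2, a mean of 0.715% ± 0.0338 (SD, n = 2). They held far less of the reads, 26432 in animal 1 and 25153 in animal 2, or 0.0557% ± 0.00429 of gene counts (SD, n = 2). TPM divides reads by length. The deposited gene tables use an effective length that is 99 nt under the annotated one, so an RNA of 144 nt is divided by 45. The same counts divided by annotated length and rescaled gave the members 0.381% of the total. At such lengths 1 read carries a large TPM value, and 25 members had under 10 reads in at least 1 animal. Depth still varied among the short members: Gm26447, at 129 nt, had 581 and 599 reads in animals 1 and 2.

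The members fell into 5 classes by symbol. 9 of the 10 annotated U3 entries, 5 of 98 Snord, 21 of 42 Snora and 6 of 9 Scarna genes were detected, with 52 of the 1399 genes of other symbols, mostly Gm numbers that name no function. By transcript type 78 members were snoRNAs and 15 scaRNAs; Scarna10 is typed as a snoRNA. The members with other symbols held 29.8% ± 0.893 of the members' reads, U3 26.0% ± 0.242, the 6 Scarna genes 23.2% ± 0.347, the Snora members 15.9% ± 0.441 and the Snord members 5.09% ± 0.556 (SD, n = 2 each). The median Snord member stood at 154 TPM in animal 1 against 87.2 TPM in animal 2, and the median Snora member at 10.5 TPM in animal 1 beside 10.9 TPM in animal 2. Snord members were thus 3.44 ± 0.61 higher than Snora members in median log2 TPM (SD between the animals, n = 2). This compares symbols, over the few Snord RNAs long enough to be counted. U3 and the members of other symbols are in neither group. The other symbols include 34 members with the ACA near the 3′ end, such as Gm22988, so this is no comparison of all C/D with all H/ACA RNAs.

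**Figure D1:**
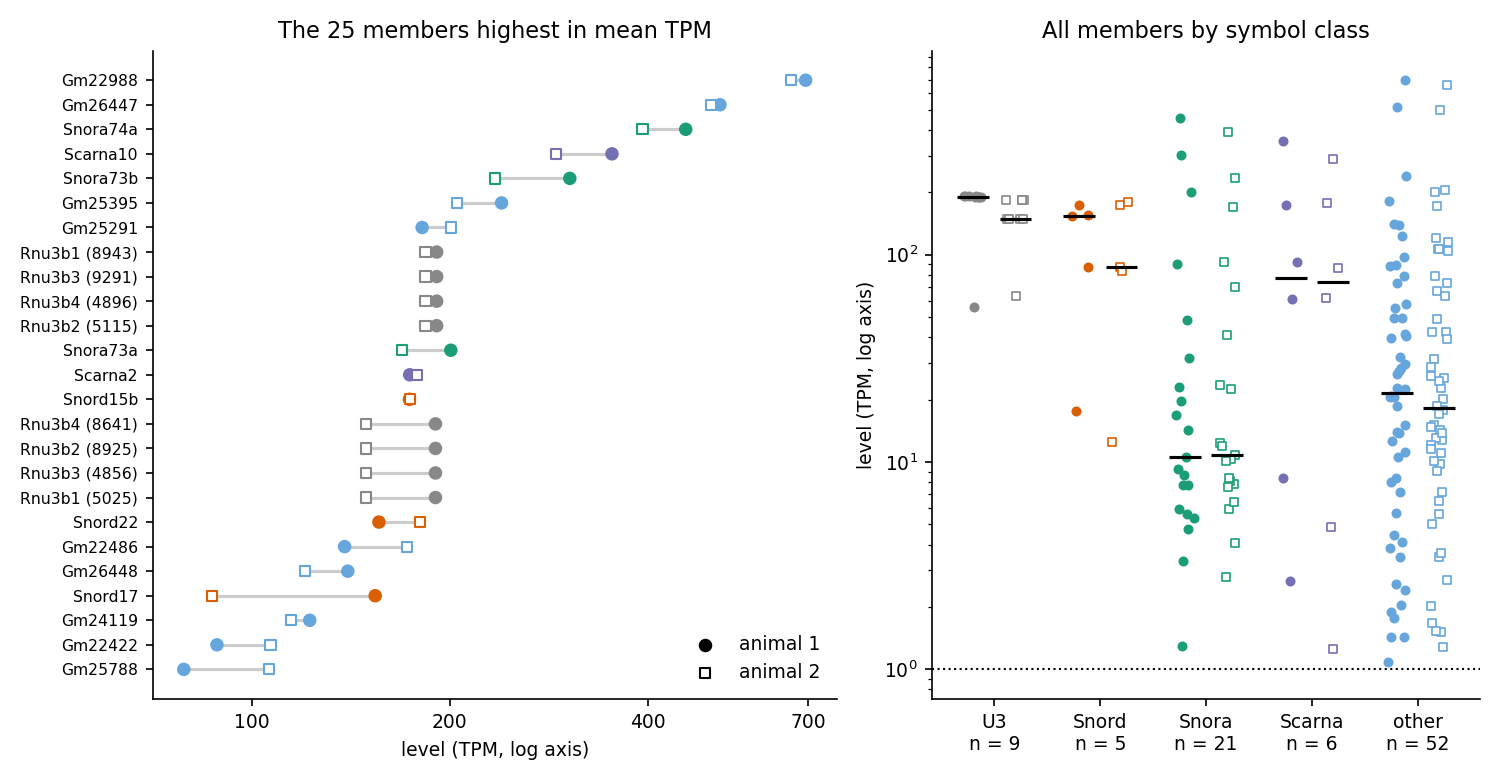
Level of the members in TPM on log axes. Left, the 25 members of highest mean TPM, filled circles for animal 1 and open squares for animal 2, with the last 4 digits of the gene identifier beside U3 entries; right, every member by symbol class with a bar at the class median in each animal and a dotted line at 1 TPM. Gm22988 stands highest in both animals, and the Snora medians of 10.5 and 10.9 TPM lie far under the Snord medians of 154 and 87.2 TPM.

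Which genes could be seen followed their length. None of the 462 genes under 100 nt had a read, since their effective length is 0, and this removes 87 of the 98 Snord genes. The 139 genes of 100 to 120 nt had 0 reads in animal 1 and 2 reads in animal 2. Above that, the share detected was 3.81% of 289 genes up to 129 nt, 6.95% of 532 genes of 130 to 139 nt, 23.9% of 71 genes of 140 to 149 nt, 26.9% of 26 genes of 150 to 199 nt and 53.8% of 39 genes of 200 nt or more. The members ran from 121 to 414 nt with a median of 139 nt. All 5 Snord genes over 120 nt (Snord15a, Snord15b, Snord17, Snord22 and Snord118) were members, so absence of a shorter snoRNA from the list says nothing of its level in muscle.

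At the edge of the rule stood members with a handful of reads. Just inside it were Gm26132 at 1.08 TPM in animal 1 against 1.53 TPM in animal 2, Scarna3b at 2.66 and 1.25 TPM and Gm26165 at 2.04 and 1.28 TPM. Just outside were Gm24044 at 0.87 and 0.89 TPM, Gm24888 at 1.71 and 0.81 TPM and Gm25852 at 0.86 and 0.81 TPM. Each of these 6 had 1 to 4 reads per animal. Of the 864 genes over 120 nt that were not members, 813 had 0 reads in both animals.

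Levels were concentrated in a few RNAs. The 5 highest members held 30.9% ± 1.04 and the 12 highest 49.9% ± 0.924 of the members' TPM (SD, n = 2). The highest was Gm22988, at 695 TPM in animal 1 beside 660 TPM in animal 2 from 1176 and 1189 reads. Gm26447 followed at 515 TPM in animal 1 against 498 TPM in animal 2. Both lie in genes of the eIF4A helicases of translation initiation, Eif4a1 and Eif4a2. These 2, with Snora74a and Scarna10 next in order, overlap an exon of an annotated host transcript, so the tables may divide reads between host and member there. Snora74a, also known as U19, stood at 457 TPM in animal 1 beside 392 TPM in animal 2, from 1667 and 1524 reads. The reads of these leaders differed little between the animals, with log2 ratios of scaled counts, animal 1 over animal 2, of -0.04 for Gm22988, -0.07 for Gm26447 and 0.10 for Snora74a.

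U3, the C/D RNA that guides early cuts of the 18S precursor, was the most abundant RNA of the set once its copies were summed. Its 10 entries held 7110 reads in animal 1 and 6508 in animal 2, or 1623 and 1396 TPM. Nearly all came from Rnu3b, with 6687 reads in animal 1 beside 6216 in animal 2, against 423 and 292 for Rnu3a. Rnu3b1, Rnu3b2, Rnu3b3 and Rnu3b4 lie in an intron of Tex14, a gene at a mean of 0.035 TPM, and each is annotated as a pair of nested entries of 215 and 216 nt. The deposited posterior SD of single entries was 328 to 613 reads on about 693 to 861 reads. Single copies therefore cannot be told apart in these tables, and only the sum is a measurement. Counted as 1 RNA, U3 leaves 85 members.

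The scaRNAs were led by long members. Scarna10 (U85), which carries both kinds of boxes and modifies U5 snRNA, had 3000 reads in animal 1 and 2625 in animal 2, the most of any single entry. Its level was 353 TPM in animal 1 against 290 TPM in animal 2. Scarna2, a guide for U2 snRNA with no host gene, had 2061 reads in animal 1 beside 2246 in animal 2, at 174 and 178 TPM. Gm25395 (scaRNA type) stood at 240 TPM in animal 1 beside 205 TPM in animal 2, and its neighbour Scarna6 at 92.7 and 86.2 TPM. These 4 had 573 reads or more in each animal, as did Gm22009, with 823 reads in animal 1 and 652 in animal 2.

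The other scaRNAs formed a middle and a low tier by TPM. Gm22009 stood at 89.6 TPM in animal 1 against 66.7 TPM in animal 2, Scarna13 at 61.0 and 62.0 TPM, Gm26083 at 49.8 and 49.2 TPM and Gm25492 at 41.6 and 39.1 TPM. Gm23119 and Gm22442 had means of 21.4 and 20.1 TPM. The low tier of Gm25820, Gm22767, Scarna3a, Gm24289, Scarna3b and Gm27653 had means of 8.63 TPM or less and at most 24 reads in either animal, too few to rank. Among the low tier, Gm25820 at 5.66 and 11.6 TPM also had uncertain reads, with a posterior SD of 66.6% of the posterior mean in animal 1 and 53.7% in animal 2.

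Boxes were searched on the strand of the RNA only: the letters ACANNN at the 3′ end, and TGATGA in the first 30 nt together with CTGA in the last 30 nt. The ACA end was present in 52 of the 93 members (55.9%), against 205 of the 864 non-members over 120 nt (23.7%) and 301 of all 1558 genes (19.3%). The C and D letters were both present in 11 members (11.8%), against 4 of the 864 (0.463%) and 323 of all genes (20.7%), most of them no longer than 120 nt. By symbol, 17 of 21 Snora members had the ACA end and 3 of 5 Snord members the C and D letters. Of the 52 members with other symbols, 34 had the ACA end and 6 the C and D letters, 1 of them (Gm25848) both. 31 members had neither, U3 entries among them, and in the printed Rnu3b1 the TGATGA lies outside the 30 nt. The median GC content was 50.9% in members and 46.9% in the 864 non-members. These are matches of letters, not tested sites.

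Relatives with nearly the same sequence were read at unequal depth. At 85% identity or more, a limit chosen after the values were seen, 25 members other than U3 formed 10 families, and the highest member had 2.10 to 60.6 times the reads of the lowest (median 3.65). Some folds rest on few reads. In the Snora70 family the lowest, Gm26165, had 3 reads in animal 1 and 2 in animal 2. That fold of 3.34 has a 95% exact counting interval of 1.20 to 11.8. Relatives under 1 TPM were left out by the rule. In the family printed first, Gm22988 had 1176 reads in animal 1 and 1189 in animal 2, Gm25291 308 and 361, Gm24727 48 and 46, and Gm25117 19 and 20. Gm22988 held 75.9% of the family's reads in animal 1 and 73.5% in animal 2, and the order of the 4 was the same in both animals. Gm22988 and Gm25291 are 97.2% identical and differ 3.54-fold in reads. Gm22988 overlaps an exon of a host transcript, whereas Gm25291, Gm24727 and Gm25117 lie wholly in introns, and the part of this in the gap was not tested. Gm22988 and Gm25117 are 91.0% identical and differ 60.6-fold (44.2 to 85.5, 95% exact interval of counting error on reads summed over the animals). The host genes do not follow this order: Eif4a1 stood at 38.2 TPM in animal 1 beside 35.3 TPM in animal 2, Sec24a at 15.1 and 14.7 TPM, Gsr at 14.1 and 11.0 TPM and Nap1l1 at 25.4 and 22.5 TPM.

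The U17 family was more even. Snora73b had 1214 reads in animal 1 and 993 in animal 2, Snora73a 801 and 718, and Gm26448 548 and 502. Snora73b and Snora73a are 96.6% identical and share the host Snhg3, at 5.11 TPM in animal 1 against 4.93 TPM in animal 2. Gm26448, at 88.3% identity to Snora73a, had fewer reads, and its host Rpsa stood at 167 and 181 TPM. The posterior SD of these counts was at most 8.22 reads, so the split between the copies was well determined by the deposited estimates. In all, 16 members had a posterior SD over 10% of the posterior mean in an animal. These were the 9 U3 entries and Gm23925, Gm25820, Scarna3b, Snora61, Snora64, Snora70 and Snora9.

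**Figure D2:**
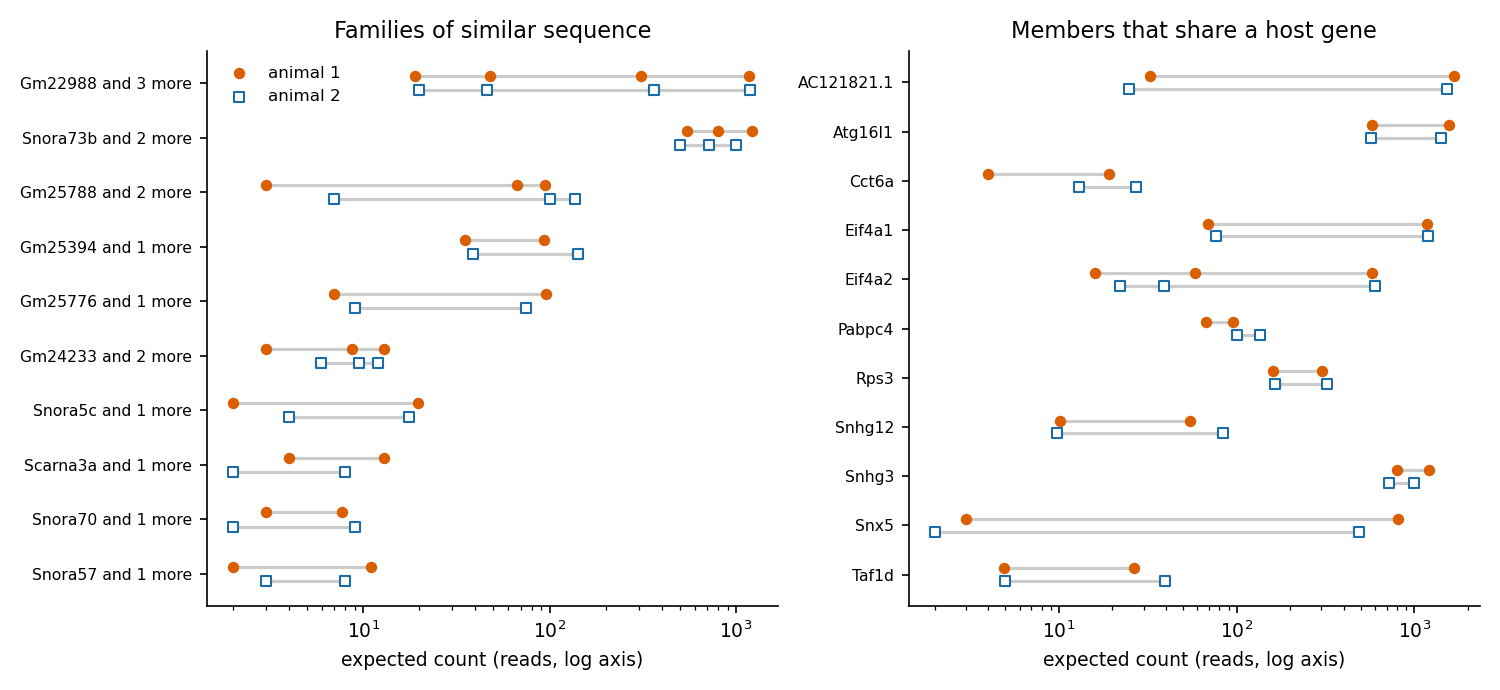
Expected counts in reads (log axis) of members within each family of similar sequence (left, named by its highest member) and within each host gene that holds more than 1 member (right). Filled circles are animal 1 and open squares animal 2, and each point is 1 member. Within the Gm22988 family reads run from 1176 to 19 in animal 1 and from 1189 to 20 in animal 2.

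Most members lie inside another gene. 87 of the 93 (93.5%) were held on the same strand by 1 of 68 host genes, 71 of them in protein-coding and 16 in non-coding hosts, against 202 of the 864 non-members over 120 nt (23.4%). 58 lie wholly in introns and 29 overlap an exon of at least 1 annotated host transcript, where reads of host and member can be mixed. Ribosomal protein genes held 9 members in 8 hosts, Snhg genes (named as snoRNA hosts) 10 in 8 hosts, and Eif4 translation initiation genes 6 in 3 hosts. The 6 members with no host were Scarna2, Rnu3a, Gm23119, Snord118 (U8, which acts on the 28S and 5.8S precursor), Snora17 and Snora57. Snora57 overlaps a gene on the other strand, and the strand setting of the counting is not given in the sources used here.

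The share detected was larger where the host gene stood higher. Among genes over 120 nt, 6 of 668 with no host were members (0.898%), 14 of 96 with a host under 1 TPM (14.6%, 8 of them U3 entries), 28.0% of 82 with a host at 1 to 10 TPM, 39.2% of 74 at 10 to 50 TPM and 56.8% of 37 at 50 TPM or more. The level of a member showed little relation to that of its host. Across the 87 members with a host, Spearman's rho of counts per annotated length against host TPM was -0.15, and it turned to 0.085 without the 8 U3 entries in Tex14 and to 0.051 with 1 member per host (n = 68). Members share libraries, and those of 1 host can share its transcript, so this is a description. The member in the highest host, Snora31 in Tpt1 (mean 1520 TPM), had 9 reads in animal 1 and 10 in animal 2. U3 entries at a mean of up to 187 TPM lie in Tex14 at 0.035 TPM. A host is defined here by position alone, and whether U3 is made from Tex14 transcripts was not tested.

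**Figure D3:**
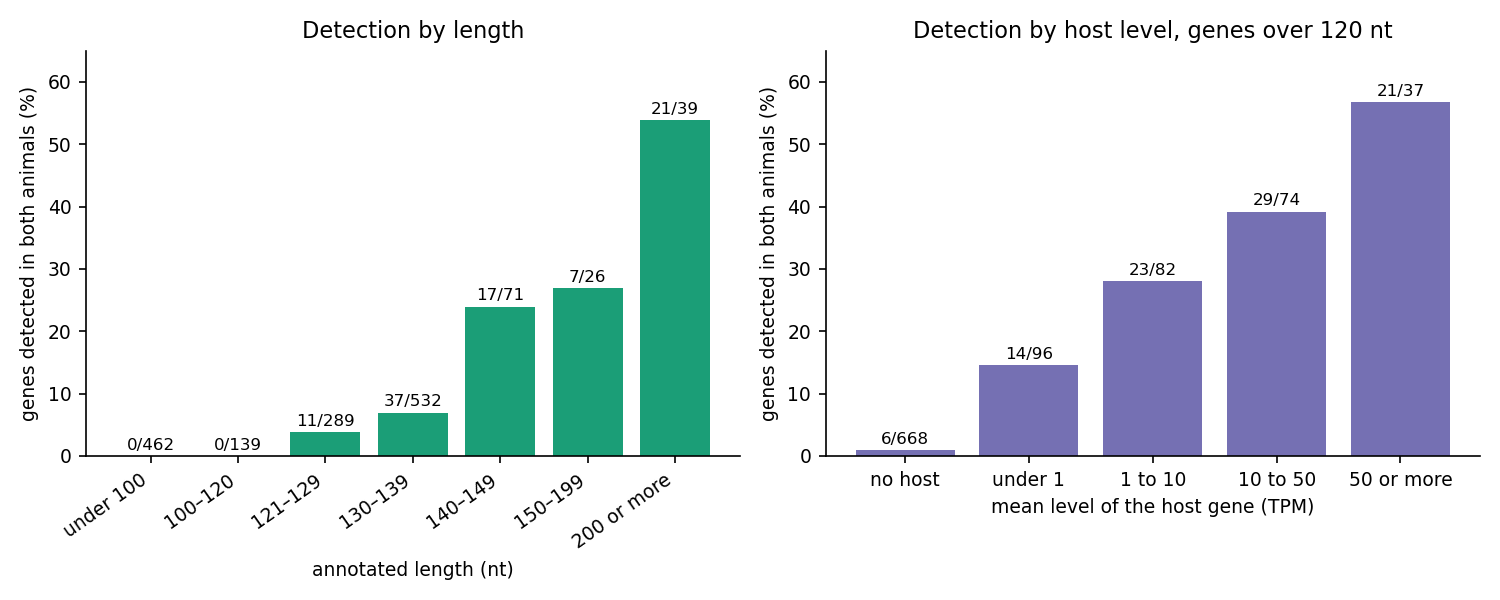
Percentage of annotated snoRNA and scaRNA genes that were detected at 1 TPM or more in both animals, by annotated length in nt (left) and, for genes over 120 nt, by the mean TPM of the host gene (right). Numbers on the bars are members over annotated genes; the share reaches 53.8% at 200 nt or more and 56.8% for hosts at 50 TPM or more.

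**Figure D4:**
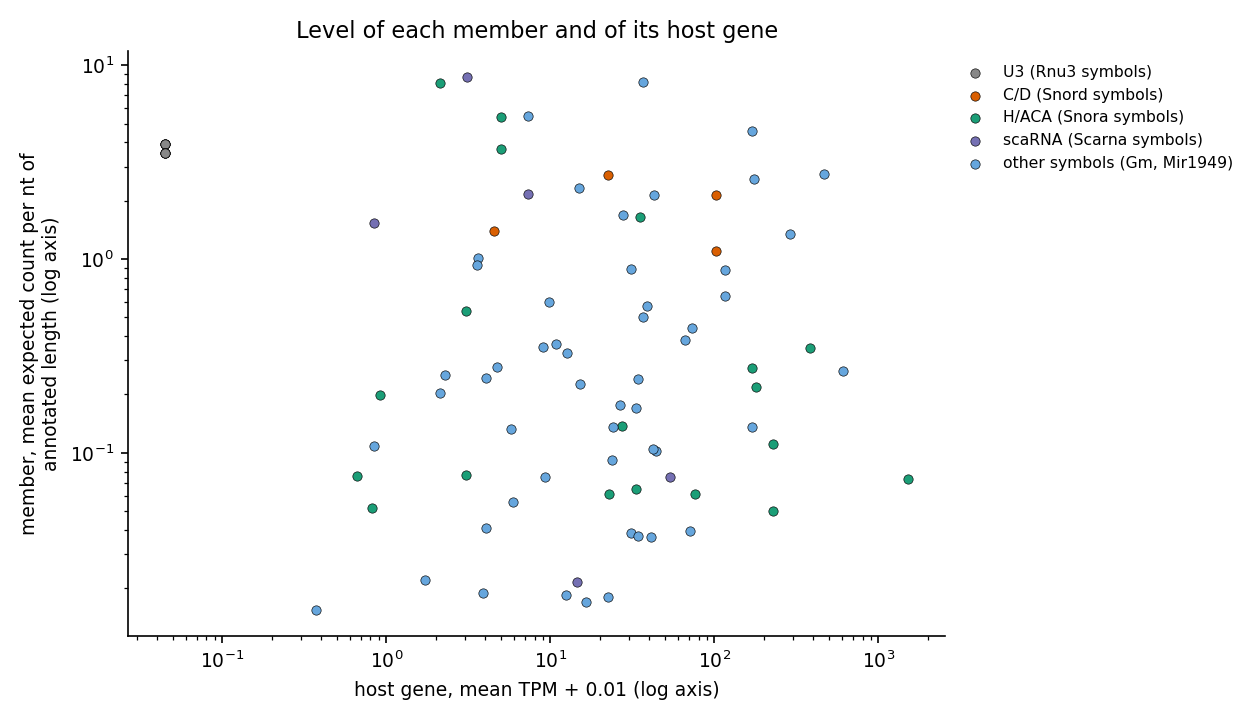
Mean expected count per nt of annotated length of each of the 87 members with a host (vertical, log axis) against the mean TPM of the host gene plus 0.01 (horizontal, log axis), coloured by symbol class. The 8 U3 entries stand alone at the left, at a host mean of 0.035 TPM, and the other points show no clear slope.

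Members of 1 host could differ widely. 11 hosts held 23 members other than U3, and within a host the highest had 1.38 to 258 times the reads of the lowest (median 6.69). In 8 hosts the fold was 2 or more, in 4 of them 10 or more, and the order of highest and lowest was the same in both animals in all 11. The widest gap was in Snx5, a sorting nexin gene, where Snord17 had 806 reads in animal 1 beside 485 in animal 2, and Gm26165 had 3 and 2 reads. That ratio of 258 in reads has a 95% exact counting interval of 110 to 797. It is not scaled for length: Snord17 is 238 nt long and Gm26165 138 nt. By TPM, which divides by effective length, the fold was 72.7. In Eif4a2, Gm26447 had 581 reads in animal 1 and 599 in animal 2, Snora81 58.3 and 39.0, and Gm24616 16 and 22. In Rps3 the pair was closer, with Snord15b at 301 and 321 reads and Snord15a at 161 and 164 reads. Snord15b and Snord15a are 64.2% identical, so their reads are not easily confused with each other. Snord15b and the 3 members in Eif4a2 overlap an exon of a host transcript, where host reads can be mixed in. Snord15a lies wholly in an intron, and the part of this in the folds was not tested.

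Of the 93 members, 70 had a mean rounded count of 10 or more and were compared by TMM-scaled counts. None was 2-fold or more higher in animal 1, where 5.75% of 15709 genes with that count were, and none was 2-fold or more higher in animal 2, where 1.91% were. Members also had to reach 1 TPM in both animals, which removes large differences, and of the 11139 genes that met this too 1.31% and 0.763% were 2-fold higher in animal 1 and in animal 2. At these rates 0 of 70 is no result about the members. The rule dropped 1 gene with enough counts, a Rnu3a entry with 180 reads in animal 1 and 0 in animal 2, an entry nested in another of the same symbol. The members' median log2 ratio, animal 1 over animal 2, was -0.055 with a range of -0.63 to 0.96, beside a median of -0.00 over all genes. 29 members were higher in animal 1 and 41 in animal 2. The part of the fat and nerve sheath markers, higher in animal 1, in these ratios was not tested.

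Some smaller differences exceeded counting error. For 25 of the 70 members the 95% exact interval of the ratio, which covers counting error only, left out 0, 13 of them higher in animal 1 and 12 in animal 2. The same held for 41.3% of the 15709 genes, 20.3% being higher in animal 1 and 21.1% in animal 2. Among the 11139 genes with 1 TPM or more in both animals it held for 45.2%, with 18.7% higher in animal 1 and 26.5% in animal 2. Without the U3 entries, whose split is uncertain, 20 of 61 members remain, 9 higher in animal 1 and 11 in animal 2. Snord17 had 806 reads in animal 1 beside 485 in animal 2, a log2 ratio of 0.71 (0.54 to 0.87), while Scarna6, of similar length, had 579 and 573 reads and a ratio of -0.01. Gm22270, in Rpl5, had 40 reads in animal 1 and 20 in animal 2, with a ratio of 0.96 (0.17 to 1.83). Gm24336 had 47 and 27 reads, with a ratio of 0.76 (0.06 to 1.51). The intervals of Scarna3a and Gm22748, at ratios of 0.64 and 0.57, held 0.

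Of the 11 members other than U3 that were higher in animal 2 by this interval, 9 were under 150 nt and 6 had the ACA end, among 61 compared members of which 42 were under 150 nt and 33 had it. Scarna2, Gm23547 and Snord22 were also among the 11. Of the 9 members other than U3 that were higher in animal 1 by this interval, 2 were under 150 nt and 7 were longer. Of those 9, 2 had the ACA end. Gm25394, in Iars, had 93 reads in animal 1 beside 142 in animal 2, a log2 ratio of -0.63 (-1.03 to -0.25). Snora44, in Snhg12, had 54.7 reads in animal 1 beside 83.9 in animal 2, also at -0.63 (-1.15 to -0.13). Gm22154, in Pabpc4, had 67 and 101 reads, with a ratio of -0.61 (-1.08 to -0.16). The intervals of Gm23442 at -0.63 and Snora21 at -0.60 held 0. With 2 libraries these gaps describe the samples and cannot be given an animal-to-animal error.

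The median ratios showed no steady order across the length groups. The 6 compared members of 121 to 129 nt had a median log2 ratio of -0.074, with 1 higher in animal 1 and 5 in animal 2. In the 22 compared members of 130 to 139 nt the median log2 ratio was -0.45, with 7 higher in animal 1 and 15 in animal 2. The 21 members of 200 nt or more had a median of 0.10, with 11 higher in animal 1 and 10 in animal 2. The 14 of 140 to 149 nt had a median of -0.00, 7 on each side, and the 7 of 150 to 199 nt a median of -0.096, with 3 higher in animal 1 and 4 in animal 2. Spearman's rho of length and ratio was 0.28 over the 70 members, which share both libraries. Whether the libraries differ in their recovery of short RNAs was not tested; 3 genes of other types at 130 to 139 nt had a median of 0.59, too few to compare.

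**Figure D5:**
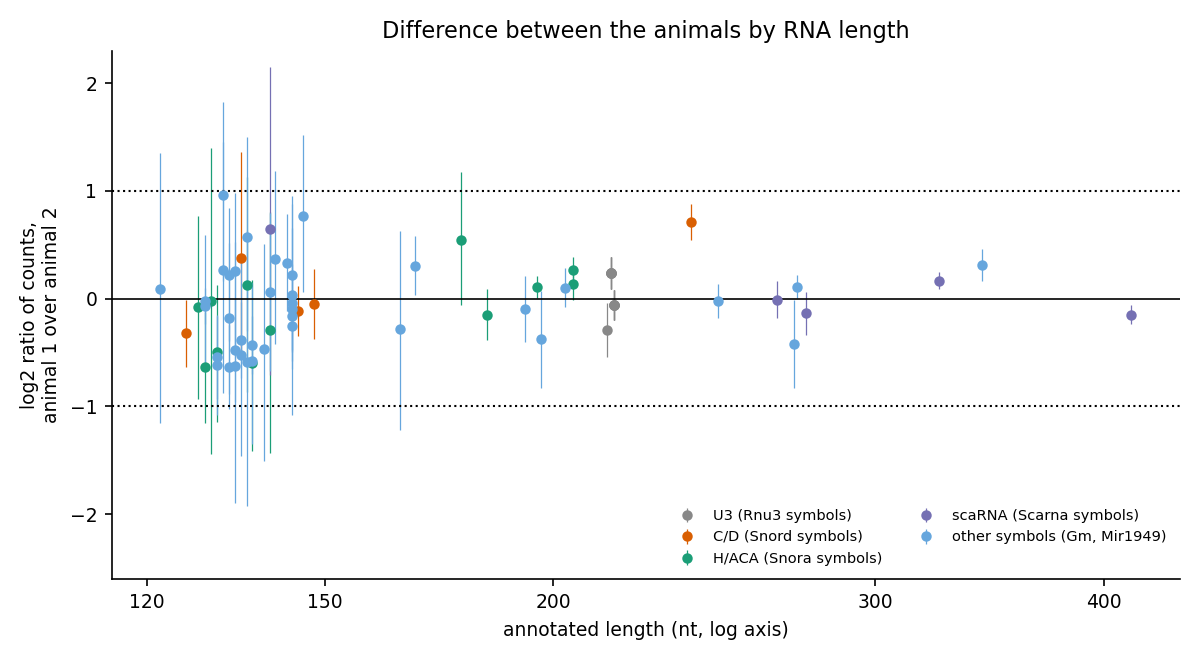
Log2 ratio of TMM-scaled counts, animal 1 over animal 2, against annotated length in nt (log axis) for the 70 compared members, coloured by symbol class. Bars are 95% exact counting intervals, the solid line is no difference and dotted lines mark 2-fold; all points lie between -0.63 and 0.96, and the 130 to 139 nt members sit mostly under 0.

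The ratio of a member followed that of its host only loosely. 57 members other than U3 had a mean count of 10 or more, as did their host. Over these, Spearman's rho of the 2 ratios was 0.27. Their median was -0.051 for the members and -0.069 for the hosts. Snora73b, for example, had a log2 ratio of 0.27, while its host Snhg3 had one of -0.12.

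The messages of the core proteins that work with these RNAs were present at moderate levels. All 4 C/D core genes were at 1 TPM or more, led by Snu13, which binds the C/D kink-turn, at 21.9 TPM in animal 1 beside 22.0 TPM in animal 2, with Nop56 at 13.4 and 13.1, the methyltransferase gene Fbl at 10.9 and 10.4 and Nop58 at 10.7 and 10.3 TPM. The 4 H/ACA core genes were all detected too: Nop10 at 21.8 and 23.1 TPM, the pseudouridine synthase gene Dkc1 at 12.6 and 10.3, Nhp2 at 9.81 and 8.92 and Gar1 at 10.5 and 7.03 TPM. None of these 8 was 2-fold apart, and their log2 ratios ran from -0.20 for Nop10 to 0.47 for Gar1. Of the 11139 genes at 1 TPM or more in both animals, 1.31% were 2-fold higher in animal 1 and 0.763% in animal 2. At these rates none of 8 is no result about them.

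The messages of further steps of the pathway were mostly present at low levels. 10 of 11 assembly genes reached 1 TPM in both animals, led by Pih1d1 at 12.6 TPM in animal 1 against 14.2 TPM in animal 2, with Shq1 below at a mean of 0.82 TPM. All 7 Cajal body genes did, with Tardbp at 46.5 and 47.2 TPM but Coil, the Cajal body scaffold, at 1.43 and 1.36 TPM and Wrap53, which binds scaRNAs, at 1.23 TPM in both animals. All 14 end-processing genes did, led by Rexo2 at 25.9 and 24.4 TPM, and all 14 U3 processome genes, led by Imp3 at 20.7 and 18.4 TPM. No gene of these 4 lists was 2-fold apart. Beside the 1.31% and 0.763% of the 11139 genes that were, this is no result about the lists.

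Of 22 listed non-coding host genes 19 were found by symbol and 14 reached 1 TPM, led by Gas5 at 29.3 TPM in animal 1 beside 24.7 TPM in animal 2. Gas5 is a known host of C/D snoRNAs, none of them a member. Meg3 at 12.7 and 7.56 TPM, Rian at 11.7 and 7.76 TPM and Snhg8 at 7.77 and 11.1 TPM followed, and 1 of 18 compared, Snhg11, was 2-fold or more higher in animal 1. For scale, the longer structural RNA Rn7sk stood at 15289 TPM in animal 1 against 14605 TPM in animal 2, Rpph1, the RNA of RNase P, at 3153 and 2471 TPM, and Rmrp, the RNA of RNase MRP, at 2080 and 1675 TPM. Rprl3 was at 285 and 250 TPM. 6 of these 8 listed RNAs reached 1 TPM.

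The second deposited transcript table, in the layout of kallisto, lists all 93 members but gave a level above 0 to 3 of them in animal 1 and 2 in animal 2. Scarna2 stood at 187 TPM in animal 1 beside 191 TPM in animal 2 there, near the 174 and 178 TPM of the gene table. Its reads were fewer, 674 in animal 1 and 729 in animal 2, against 2061 and 2246 in the gene table. They were divided by an effective length of 116 and 114 nt there, against 315 nt in the gene table. Gm22009 had 13.1 TPM in animal 1 against 0.362 TPM in animal 2, from 34 reads and 1 read, against 823 and 652 reads in the gene table. Scarna10 had 2 reads in animal 1 and none in animal 2, against 3000 and 2625. The longest member was thus the sole one at a like TPM in both tables, though not at like reads.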

How the data were processed

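Total RNA of gastrocnemius from 2 mice was sequenced, 1 library each. The deposited gene tables give an expected count and a TPM per gene in the layout of RSEM, per the file headers, and a posterior SD and mean of each count, read as deposited scores. The second transcript tables hold estimated counts and TPM deposited in the layout of kallisto. The labels name mm10; a tool version or strand setting is not given in the sources used here. B6 and CAST alleles were both counted on mm10, a B6 genome, so CAST reads can be lost.

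From these, expected counts were rounded for edgeR's TMM scaling factors, and log2 ratios of animal 1 over animal 2 were taken with a prior count of 0.5 where the mean count was at least 10; these steps were tested on simulated data. DESeq2 size factors were an alternative. Counting intervals are exact (Clopper-Pearson, 95%), and cover counting error only. A fold of 2 was the limit for naming a difference. Rows that name no gene (8.84e-06% of counts in animal 1 and 1.04e-05% in animal 2) and the spike-ins (0.479% in animal 1 and 0.387% in animal 2) stayed out of library sizes. Gene types and symbols came from the second transcript tables, spans and exons from GENCODE M21, with all members matched. A host is the gene of another type on the same strand whose span holds the member, the one of highest mean TPM where there were several. Identity is by edit distance over the longer length.

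Members and lists were chosen with earlier results of these data known. Named were the 12 members of highest mean TPM and the 8 of highest count, every scaRNA, the 3 genes on each side of the TPM limit, the 5 members furthest apart in each direction, their hosts and the leading genes of each list. Families, hosts with several members, and the members used as examples there were named after their values were seen. Scripts ran in Python 3.11.15 with edlib 1.3.9.post1, scipy 1.17.1, pandas 2.3.3, numpy 2.4.6 and matplotlib 3.10.9, and in R 4.3.3 with DESeq2 1.42.0 and edgeR 4.0.16.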

Additional observations from a re-analysis of the deposited data

How the results depend on the processing

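Of 56 recalculations 41 left the result within a set limit, 12 moved it and 3 reversed its sign. The limit was the spread between the animals, 1.5 times for a count, and a fixed log2 distance for the median ratio. The count of 93 members became 307 with the deposited posterior mean TPM, was 68 to 106 with other limits on TPM or counts, and was 104 to 111 without 1 of the replicates. Of the 864 non-members over 120 nt, 813 had 0 reads in both animals, so most genes added by the posterior mean had no read. The 307 is therefore not a count of detected RNAs. Without members whose posterior SD was over 10%, mostly U3, the shares of TPM and of counts were 0.561% and 0.0410%; per annotated length the TPM share was 0.381%. Without 1 replicate these shares ran from 0.696% to 0.746% and from 0.0528% to 0.0592%. The median ratio between the animals was -0.25 with spike-in scaling and turned to 0.055 with library size alone, which moved the median of all genes to -0.20 and 0.11; members higher in animal 1 and animal 2 then numbered 20 and 50, and 43 and 27. Members 2-fold or more higher in animal 1 numbered 1 with library size alone, and 1 with no filter on low counts, where 5 were 2-fold or more higher in animal 2. The Snord minus Snora difference was 2.74 at a limit of 5 TPM, and 3.06 to 4.23 without 1 replicate. The host rho reversed to 0.051 with 1 member per host and to 0.085 without U3 entries, was -0.25 without members in host exons, and -0.19 to -0.17 without 1 replicate; the exclusions of U3 entries and of members in host exons, and counting U3 as 1 RNA, were chosen after seeing the data. The causes were not tested. No paired analysis was possible because there was 1 group. Members under 10 reads are limited by depth.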
